A study of Mus musculus with 5 samples.

Results

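Of 36447 distinct windows centred on a transcription start site (TSS), 4508 (12.4%) carried a strong nucleosome signal on one side of the TSS and at most 1/2 of that level on the other. They are called one-sided windows here. The signal came from ATAC-seq, in which a transposase cuts accessible DNA, and each window held 200 bins of 10 bp, from 1000 bp on the left of the TSS to 1000 bp on its right. Dividing every table by its mean gave a relative signal in which 1 is the library average, and the wild-type mean and the knockout mean were averaged with equal weight. One-sided windows were chosen by these measured values. The window mean had to reach 1.3, which 9610 windows did. The 100 bp around the TSS (the centre) had to lie below the mean of both flanks (50 to 200 bp from the TSS on each side), and that mean had to be at least as high as the higher outer end (700 to 1000 bp). These criteria left 6960 windows. Finally, the stronger flank had to be at least 2 times the weaker. The left flank was the stronger in 2195 windows and the right flank in 2313. The remaining 2452 windows, with a ratio under 2, are called balanced and serve for comparison.

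All libraries came from C57BL/6J mouse pre-B cell leukemia cells that overexpress the oncogene BCR-ABL1 and lack the tumour suppressor p19. The 2 wild-type libraries (WT1 and WT3) kept the chromatin protein PHF6, and the 3 knockout libraries (KO1, KO2 and KO3) were PHF6 null as well. The series calls them biological replicates. Their origin (culture, clone or animal) is not stated in the sources used here, and the p-values measure only the spread between these libraries, which may be technical. The labelled cell type was not checked against marker genes, because the windows carry no gene names.

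At an active promoter, DNA just around the TSS is usually kept free of nucleosomes by transcription factors, remodelling enzymes and the transcription machinery. The first nucleosome downstream, called +1, is usually the best positioned, and further nucleosomes follow it at regular spacing. The nucleosome on the upstream side, called -1, is more variable, and a second promoter firing in the opposite direction often lies there. NucleoATAC, the program named for these tracks, infers nucleosome positions from the lengths and cut sites of ATAC-seq fragments. PHF6 is a nuclear PHD-finger protein that is mutated in some leukemias. Left and right are the order of the columns and are not read as upstream and downstream. Runs of identical values shared by 2 overlapping windows stood in the same order in 351 pairs and in reversed order in 0, which allows a share of reversed pairs of up to 0.855%. Pairs of TSSs on the same strand would share their order even if the columns followed the strand, and the strands are not known. The sides are therefore treated as mirror sets, and no flank is named +1 or -1.

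The values that chose the windows were spread widely. The stronger flank had a median relative signal of 8.26, the weaker flank of 1.71 and the centre of 0.968. The ratio between the flanks had a median of 4.42 and lay between 2.29 and 18.0 in the middle 80% of windows. It was between 2 and 3 in 1281 windows and at 20 or more in 390, and in 3 windows the weaker flank was at 0. The mirror sets had nearly the same medians, with a stronger flank of 8.30 on the left and 8.23 on the right and a ratio of 4.42 in both. Mirrored onto each other, their average profiles correlated with Pearson's r = 0.998 across bins, which are not independent. In what follows, left-sided windows are flipped so that the stronger flank lies at positive distances.

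The average one-sided window was not a lone nucleosome beside an empty stretch. In the profile smoothed over 3 bins, the tallest maximum lay at 125 bp in all 5 libraries, and the next one outward lay at 345 bp, 220 bp further. On the weaker side the maximum lay at -235 bp in all 5 libraries. Its height was 4.38 in WT1, 3.88 in WT3, 4.94 in KO1, 5.90 in KO2 and 5.73 in KO3, against 13.2, 11.1, 14.6, 17.4 and 16.1 for the tallest maximum. The rule required low signal at 50 to 200 bp on the weaker side, so a maximum outside that stretch is partly set by it. The distance between both maxima was 360 bp in one-sided windows and 320 bp in balanced windows, whose maxima lay at 145 and -175 bp.

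**Figure D1:**
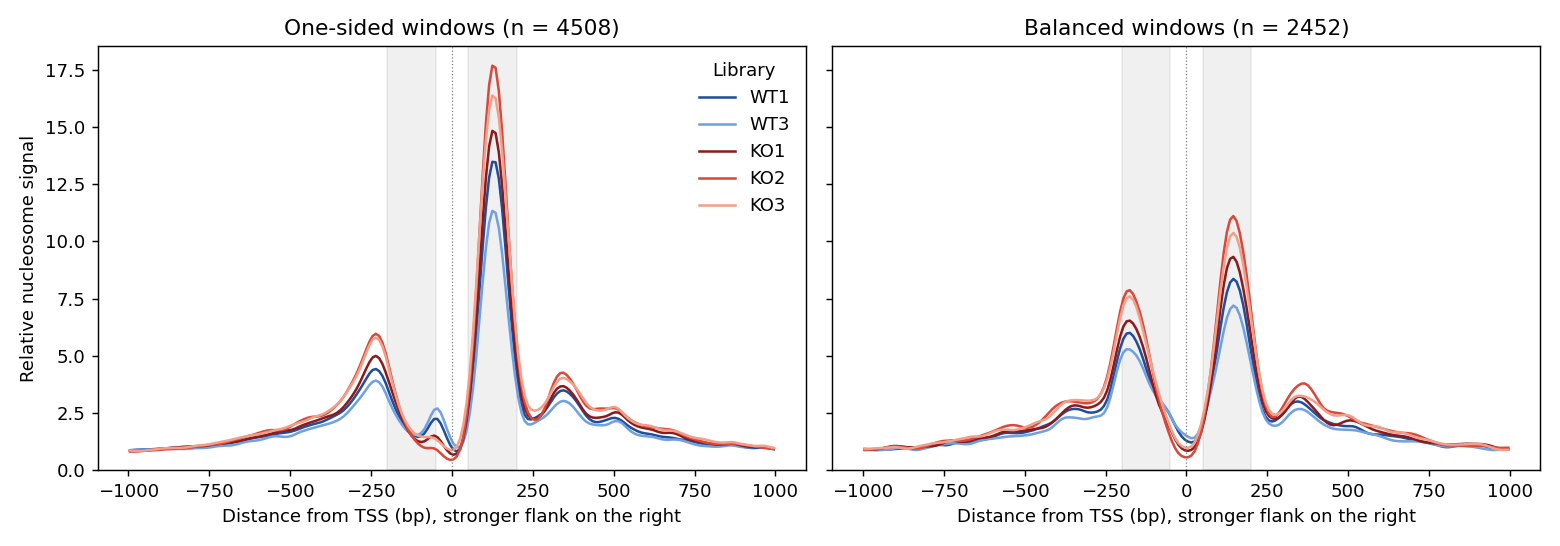
Mean relative nucleosome signal (y axis) against distance from the TSS in bp (x axis), 1 line per library, for 4508 one-sided windows (left panel) and 2452 balanced windows (right panel), with the flanks of the rule shaded. In one-sided windows all 5 libraries peak at 125 bp and again, lower, at -235 bp.

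The position was then read in single windows. In the genotype average, the strongest bin within 450 bp on the stronger side lay at a median of 135 bp (quartiles 115 and 155 bp). On the weaker side it lay at a median of 225 bp, and in 63.4% of one-sided windows it was more than 200 bp away. The same share was 30.8% in balanced windows, where no low weaker flank was required. The weaker side was not uniform either. In 1586 one-sided windows (35.2%) the mean signal at 200 to 350 bp on the weaker side reached at least 1/2 of the stronger flank, and in the other 2922 (64.8%) it did not. In balanced windows that share was 42.4%. This division was made after the average profile was seen.

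**Figure D2:**
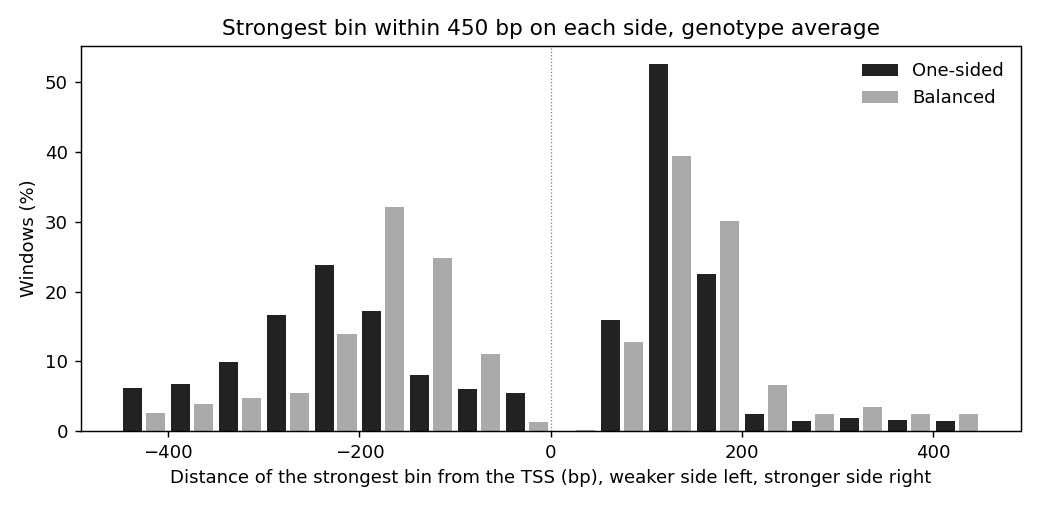
Share of windows in percent (y axis) by the distance of their strongest bin from the TSS, in steps of 50 bp (x axis, weaker side negative), for one-sided windows (black) and balanced windows (grey), from the average of both genotypes. On the weaker side 63.4% of one-sided and 30.8% of balanced windows have their strongest bin beyond 200 bp.

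To see whether the stronger side recurred in data that had not chosen it, the rule was applied to 4 libraries at a time and the windows were read in the library left out. Between 4341 and 4620 windows were chosen in this way. The flank chosen as stronger was again the higher in 86.8% of windows in WT1, 83.3% in WT3, 91.5% in KO1, 92.0% in KO2 and 88.7% in KO3. Balanced windows chosen likewise kept their side in 61.0% to 67.1%. A ratio of at least 2 recurred in 66.3% of the chosen windows in WT3, the lowest share, and in 81.6% in KO2, the highest. The mean flank ratio in the left-out library was 1.80 in WT1 and 1.55 in WT3 on the log2 scale, and 2.12 in KO1, 2.32 in KO2 and 2.10 in KO3. The lowest knockout value, in KO3, was thus above the higher wild-type value, in WT1. Each value rests on its own set of windows, and with a wild-type library left out only 1 wild-type library took part in the choice. In balanced windows the ratio was 0.472 in WT1 and 0.409 in WT3, against 0.505, 0.543 and 0.491 in KO1, KO2 and KO3, also without overlap. Among the 4508 windows chosen on all libraries, 3235 (71.8%) had the same stronger flank in each of the 5 libraries, and 1773 (39.3%) had a ratio of at least 2 in each. Every library had taken part in that choice, so both of these shares are partly set by the rule.

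**Figure D3:**
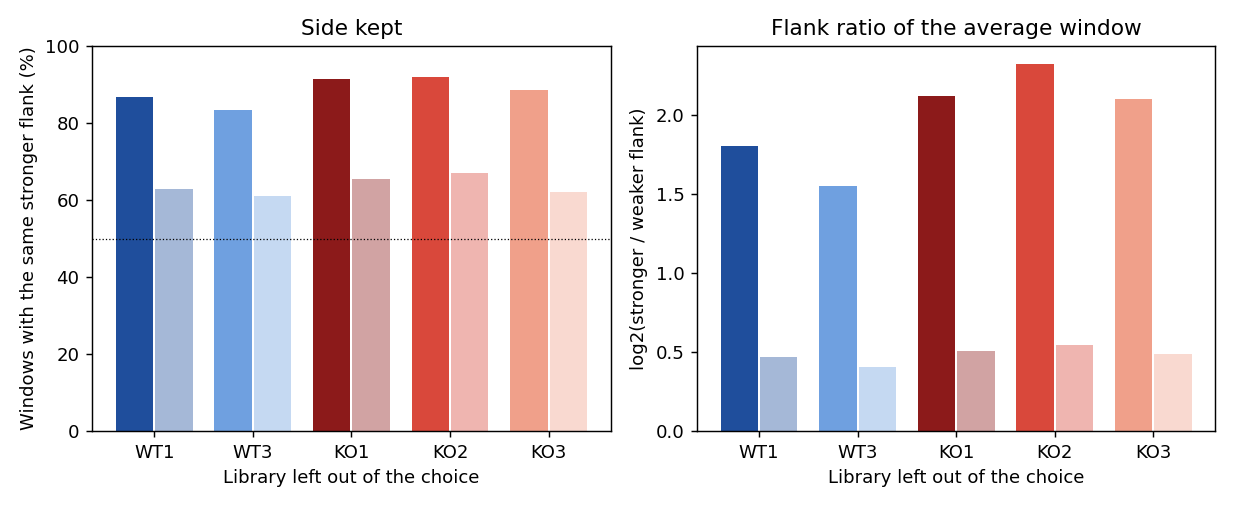
Share of windows in percent that kept their stronger flank (left panel; dotted line at 50%) and log2 ratio of the mean stronger to the mean weaker flank (right panel) in the library left out when the windows were chosen. Full colours are one-sided and pale colours balanced windows; one-sided windows kept their side in 83.3% to 92.0%.

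Next, the genotypes were compared on the average one-sided window. The rule weights both genotypes equally and does not use their difference. With 2 libraries against 3, the smallest p that an exact permutation test can give is 0.1, so no single comparison could pass a threshold of 0.05. In all, 18 such comparisons were made, 5 of them chosen after the profile was seen, and p-values were adjusted over the 18 by the Benjamini-Hochberg method.

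The stronger flank was higher in the knockout. Its relative signal was 9.02 in WT1, 7.54 in WT3, 9.95 in KO1, 11.8 in KO2 and 11.4 in KO3. The groups did not overlap, with means of 8.28 ± 1.04 (SD, n = 2) and 11.0 ± 0.957 (SD, n = 3; two-sided exact permutation p = 0.1, adjusted 0.225). Without scaling by the library mean the order did not hold, since the deposited signal there averaged 3.59 in KO3 against 4.81 in WT1 and 4.06 in WT3. The weaker flank did not follow. It was 2.08 in WT1, 2.08 in WT3, 2.00 in KO1, 2.00 in KO2 and 2.21 in KO3, with a difference of -0.00625 between knockout and wild type that lay within the spread (exact permutation p = 1). The flank ratio, which no scaling changes, was 2.12 and 1.86 on the log2 scale in WT1 and WT3 and 2.32, 2.56 and 2.36 in KO1, KO2 and KO3. It was higher by 0.42 in the knockout, again without overlap (exact permutation p = 0.1, adjusted 0.225).

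The same values were then set against balanced windows. Among them the stronger flank averaged 5.73 ± 0.533 in the wild type (SD, n = 2), and the knockout reached 7.43 ± 0.626 (SD, n = 3). Set against balanced windows in the same library, the stronger flank of one-sided windows differed between genotypes by 0.04 on the log2 scale, and the groups overlapped (exact permutation p = 0.2, adjusted 0.257). The flank ratio, taken against the ratio of balanced windows, was higher by 0.31 in the knockout without overlap (exact permutation p = 0.1, adjusted 0.225). The difference in the stronger flank was thus not shown to differ from that in balanced windows, while for the flank ratio the genotypes did not overlap in that comparison either.

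Among the 50 bp steps from -350 to 100 bp, the largest relative difference lay next to the TSS on the weaker side. At 0 to 50 bp on the weaker side the signal was 1.71 in WT1, 2.13 in WT3, 1.08 in KO1, 0.637 in KO2 and 1.08 in KO3, so that the knockout mean was 0.486 of the wild-type mean. At 50 to 100 bp it was 0.641, at 100 to 150 bp 1.01, at 150 to 200 bp 1.26 and at 200 to 250 bp 1.34 of the wild-type mean. The weaker flank as a whole therefore joined an inner part that was lower and an outer part that was higher in the knockout. On the stronger side, the first 50 bp gave a ratio of 1.10 with overlapping groups, and the next 50 bp one of 1.37. Wild-type libraries had a small rise at -45 bp, with 2.24 in WT1 and 2.70 in WT3. The knockout libraries stood at 1.45, 0.874 and 1.31 there. In balanced windows, the weaker-side steps from 0 to 50 bp out to 200 to 250 bp gave ratios of 0.611, 0.928, 1.25, 1.295 and 1.29. The step next to the TSS was thus the lowest there too, without overlap between genotypes.

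**Figure D4:**
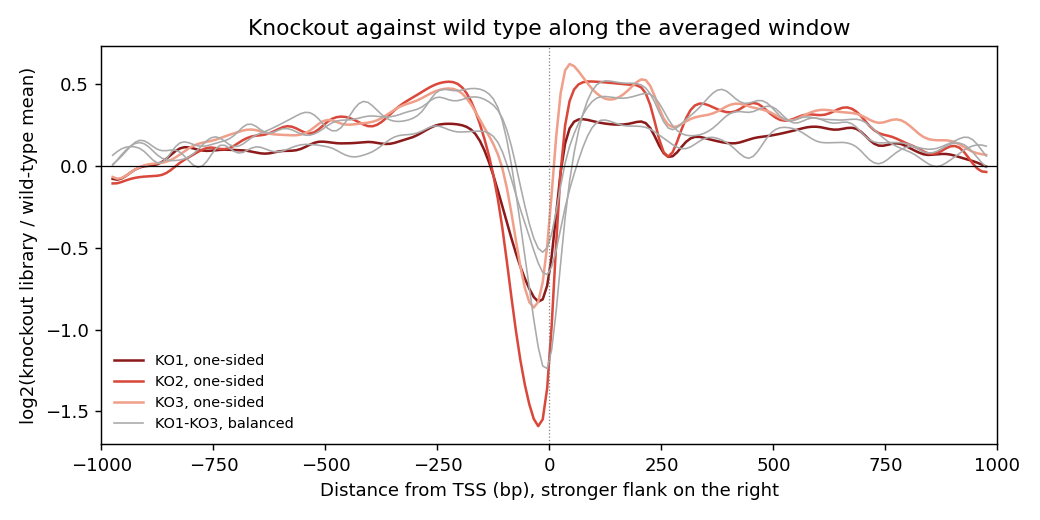
log2 of each knockout library's mean signal over the wild-type mean (y axis, profiles averaged over 5 bins) against distance from the TSS in bp (x axis, stronger flank at positive distances), for one-sided windows (red) and balanced windows (grey). All 3 knockout libraries lie below 0 just on the weaker side of the TSS and above it around the maxima at 125 and -235 bp.

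Averaged over 0 to 100 bp on the weaker side, a stretch chosen after the profile was seen, the signal was 1.78 in WT1, 2.12 in WT3, 1.22 in KO1, 0.811 in KO2 and 1.26 in KO3. The means were 1.95 ± 0.240 (SD, n = 2) and 1.10 ± 0.249 (SD, n = 3), with exact permutation p = 0.1 (adjusted 0.225). The log2 ratio of this stretch to the stronger flank was also set against that ratio in balanced windows of the same library. It differed by -0.58 between genotypes, again without overlap (exact permutation p = 0.1, adjusted 0.225), and the stronger flank enters it too. In balanced windows the stretch itself was also lower in the knockout, at 1.90 ± 0.190 (SD, n = 3) against 2.36 ± 0.0472 (SD, n = 2). At 200 to 350 bp on the weaker side the signal was higher in the knockout, at 4.40 ± 0.397 (SD, n = 3) against 3.39 ± 0.280 (SD, n = 2; exact permutation p = 0.2, adjusted 0.257). Balanced windows were higher there too, at 3.72 ± 0.245 (SD, n = 3) against 2.97 ± 0.237 (SD, n = 2), without overlap. Without scaling by the library mean, one-sided windows overlapped in that stretch, with 1.44 in KO3 against 1.91 in WT1 and 1.72 in WT3. The inner stretch was lower in the knockout on both sides of the division by that outer signal. Where the outer signal was high, the inner stretch was 2.07 in wild type and 1.02 in the knockout, and where it was low, 1.88 and 1.14.

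The centre was lower in the knockout, at 1.44 in WT1, 1.67 in WT3, 1.12 in KO1, 0.902 in KO2 and 1.35 in KO3 (exact permutation p = 0.2, adjusted 0.257). The log2 ratio of the stronger flank to the centre was 2.65 in WT1, 2.17 in WT3, 3.15 in KO1, 3.71 in KO2 and 3.07 in KO3 (exact permutation p = 0.1, adjusted 0.225). Against balanced windows that ratio differed by -0.03 between genotypes, with overlapping groups (exact permutation p = 0.8, adjusted 0.9). The weaker flank was entirely at 0 in 3.08% of one-sided windows in WT1, 1.84% in WT3, 4.68% in KO1, 10.5% in KO2 and 8.34% in KO3.

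**Figure D5:**
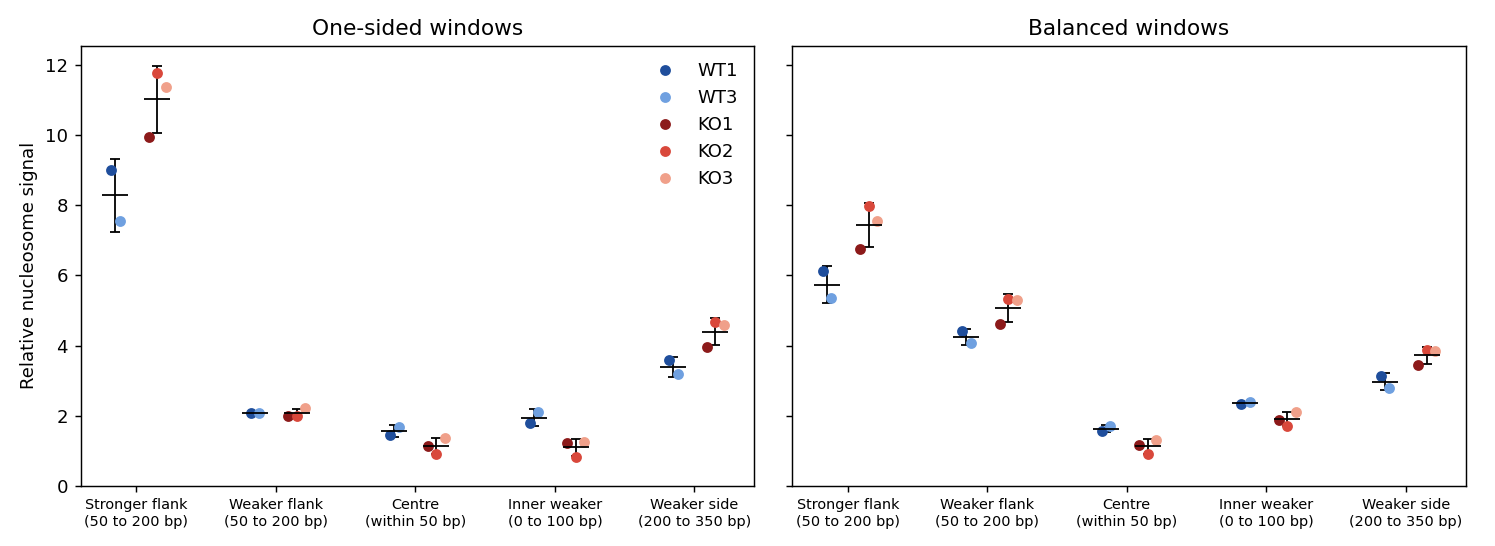
Mean relative signal (y axis) of 5 stretches of the window (x axis) in one-sided windows (left panel) and balanced windows (right panel). Points are libraries, and bars are the mean ± SD of 2 wild-type and 3 knockout libraries; in one-sided windows the inner weaker stretch runs from 0.811 to 2.12 and the weaker flank from 2.00 to 2.21.

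The share of bins at 0 also differed between libraries, in another order than these values. In one-sided windows it was 23.8% in WT1, 24.2% in WT3, 22.8% in KO1, 27.2% in KO2 and 35.9% in KO3. The part of empty bins in the differences between genotypes was not tested. The read depth behind the deposited signal is unknown.

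Window by window, limma's moderated test on log2(relative signal + 0.1) called 0 of 4508 one-sided windows at an adjusted p under 0.05. This held for the whole window, for each flank, the centre, the flank ratio and the inner weaker stretch, and over all 36447 windows the share called was 0% each time. The smallest adjusted p for a one-sided window was 0.117. At an unadjusted p under 0.05, the whole-window signal was higher in the knockout in 694 one-sided windows (15.4%; 4.54% of all windows) and lower in 80 (1.77%; 6.67% of all). Balanced windows had nearly the same shares, 15.7% higher and 2.28% lower. Rows 4130 and 37014, described below, are in these counts and reached the minimum of 1.3 only through the genotype where they were higher. How many others did so was not counted. The contrast with all windows is therefore partly set by the rule. The stronger flank was higher in 566 (12.6%; 3.49% of all) and lower in 53 (1.18%; 5.38% of all), against 10.8% and 1.63% of balanced windows. The weaker flank was higher in 177 (3.93%; 1.88% of all) and lower in 241 (5.35%; 4.52% of all), against 7.18% and 3.02% of balanced windows.

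For the centre, 90 one-sided windows were higher (2.00%; 1.28% of all) and 333 lower (7.39%; 5.7% of all) at that unadjusted p, close to the 2.08% and 7.99% of balanced windows. The flank ratio was higher in 305 (6.77%; 2.81% of all) and lower in 58 (1.29%; 4.56% of all), against 3.38% and 2.73% of balanced windows. In the inner weaker stretch 58 were higher (1.29%; 1.22% of all) and 480 lower (10.6%; 5.45% of all), against 3.18% and 7.50% of balanced windows. Whether these shares differ between one-sided and balanced windows was not tested. The median log2 difference over one-sided windows was 0.64 for the flank ratio (-0.08 over all windows), 0.39 for the stronger flank (-0.25) and -0.95 for the inner stretch (-0.19; -0.45 over balanced windows). For the centre it was -0.54 and turned to 0.08 under quantile normalization. That normalization moved the median whole-window difference of all windows from -0.21 to -0.01, and left one-sided medians of 0.21 for the flank ratio, 0.07 for the stronger flank and -0.38 for the inner stretch.

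With 25% of windows, those of lowest mean signal, left out, 27335 windows were tested and 72 one-sided windows passed limma's adjusted threshold for the whole-window signal. Of these, 70 were higher in the knockout and 2 lower. Over all tested windows 149 (0.545%) were higher and 25 (0.0915%) lower. The 72 are 1.6% of one-sided windows, against 1.75% of balanced windows, and 30 were left-sided and 42 right-sided. Rows 4130 and 37014 are among the 72, so the contrast with all tested windows is partly set by the rule here too. The count moved with the libraries used, to 3 higher and 0 lower without WT3, 7 and 1 without KO2, and 19 and 0 without WT1, against 75 and 2 without KO1 and 62 and 3 without KO3. With the replicate number as a block it was 19 higher and 1 lower, and under quantile normalization 14 and 4. With all 5 libraries and no block, 0 one-sided windows passed for either flank, the centre, the flank ratio or the inner weaker stretch in that run. The stronger flank then gave 3 higher with the block, and 7 higher and 1 lower under quantile normalization.

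Windows are cited by their row number in the deposited tables, since the rows carry no gene name or position. Row 35830, left-sided, had the smallest p for a higher whole-window signal, with 1.39 in WT1, 1.48 in WT3, 4.32 in KO1, 5.24 in KO2 and 5.72 in KO3. The groups did not overlap, and the log2 difference was 1.75 (SE 0.267; limma adjusted p = 0.117, and 0.00028 without the lowest 25%). Its stronger flank stood at 1.71 in WT1 and 9.29 in WT3, against 27.2, 31.2 and 25.2 in KO1, KO2 and KO3. Its weaker flank was 3.75 in WT1, above the stronger one, and 1.79 in WT3. The wild-type flank means of 5.50 and 2.77 fell just short of a ratio of 2, so this window met the rule only with its knockout signal. Row 21464, right-sided, went from 2.38 and 1.82 to 6.05, 6.01 and 5.34, and row 4130, right-sided, from 1.02 and 1.19 to 2.68, 3.93 and 3.47. The wild-type mean of row 4130 was 1.10, below the minimum of 1.3, so this window was chosen only through its knockout signal. Row 37014, right-sided, had the smallest p for a lower signal, with 4.42 in WT1, 3.25 in WT3, 1.14 in KO1, 0.832 in KO2 and 1.12 in KO3 (log2 difference -1.80, SE 0.299; limma adjusted p = 0.128). Its knockout mean was 1.03, below the minimum of 1.3, so it was chosen only through its wild-type signal. For rows 35830, 4130 and 37014, a difference in the direction seen is therefore partly set by the rule. Its stronger flank was at 0.00556 in KO2, against 31.8 in WT1. Rows 4895 and 29747 followed, with log2 differences of -1.13 and -0.92. In the knockout, the centre of row 29747 was 2.98, above the mean of its flanks of 3.716 and 0.1482. This window thus met the rule only with its wild-type signal, and its lower signal is partly set by the rule too. The wild-type flanks of row 4895 had a ratio under 2, so that window met the rule only with its lower knockout signal. How far the rule sets its difference was not tested.

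For the flank ratio, rows 9209, 11265 and 17706, all right-sided, had the smallest p for an increase, each with a limma adjusted p of 0.652. In row 17706 the stronger flank was 17.9 in WT1, 18.4 in WT3, 56.6 in KO1, 57.8 in KO2 and 60.1 in KO3, and the weaker flank went from 1.12 and 1.68 to 0, 0.119 and 0.0298. Both flanks moved apart there. In row 9209 the weaker flank was 1.90 in WT1 and 4.61 in WT3 and at most 0.00189 in the knockout. In row 17343, which had a smaller ratio in the knockout, the stronger flank stayed between 7.30 and 9.61 while the weaker flank went from 0.0642 and 0.0291 to 3.19, 5.61 and 2.24. Rows 13163 and 8033 also had smaller ratios, with log2 differences of -5.21 and -4.22. In the knockout, the flanks of row 13163 averaged 3.855 and 1.929, just short of a ratio of 2. Its centre was 3.38 there, above the mean of both flanks. This window thus met the rule only with its wild-type signal, and its smaller ratio is partly set by the rule.

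The strongest one-sided window, row 22298, stood apart with a mean of 116, against 8.34 for row 10260, the next. Its stronger flank was 346 in WT1, 315 in WT3, 391 in KO1, 360 in KO2 and 593 in KO3, and its weaker flank was at or near 0 in every library. Its strongest bin within 450 bp lay at 255 bp, outside the flank. Row 2218, right-sided, had nearly the same level as the left-sided row 10260, with 8.32. The stronger flank of row 10260 was 46.9, 41.2, 65.9, 106 and 76.0 in WT1, WT3, KO1, KO2 and KO3, and that of row 2218 was 45.7, 44.0, 65.6, 104 and 71.3. Whether both rows hold the same nucleosome, read from either side, is not known. At the edge of the rule, rows 9596 and 17333 had flank ratios of 2.00 just inside, and rows 6684 and 1270 ratios of 1.999 and 1.998 just outside. Row 9596 had flanks of 6.74 and 3.37, and row 6684 of 21.5 and 10.8.

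One-sided windows can share a nucleosome, and so are not independent. A search for pairs whose tallest nucleosome and surroundings matched in all 5 libraries was added after the data were seen. It was run with 4 settings of the match, and the thresholds were varied with the counts in view. The strictest gave 257 pairs of one-sided windows, which held 501 of them (11.1%), and the loosest 524 pairs with 868 windows (19.3%). As a measure of false matches, the same search with one window reversed gave 0, 0, 45 and 127 pairs from the strictest to the loosest. Under the strictest setting, 91 pairs had the same stronger side and 166 opposite sides. In 100 of those 166, the TSS of the left-sided window lay left of the other, at a median distance of 160 bp, so that each TSS was flanked by its stronger nucleosome on the outer side. In the other 66 the order was the opposite, at a median of 265 bp, with the stronger flanks facing each other. With 1 window kept per shared nucleosome, the difference in the flank ratio was 0.40 to 0.42 over the 4 settings, against 0.42 with all windows.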

How the data were processed

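Each of 5 libraries had 1 deposited table of 37310 rows and 200 columns, whose values are nucleosome signal around TSSs made by the authors; NucleoATAC is named only in the file names. Bowtie2, MACS2 and the build mm9 are named in the submitters' processing notes, without versions; the signal track, its scaling between libraries and the row order were not given in any source used here. Empty rows (818) and repeats (45) were dropped, leaving 36447 windows, and each library was divided by its mean over all rows. The members, lists and tests were chosen with earlier results of these data known.

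Single values were compared by exact permutation over libraries, and windows by limma 3.58.1 in R 4.3.3 on log2(relative signal + 0.1), with Benjamini-Hochberg adjustment over all windows. Python 3.11.15, numpy 2.4.6, pandas 2.3.3 and scipy 1.17.1 were used, and the rule and the limma step were tested on simulated data. Windows named are, for each side, the 3 with the highest mean, the 3 with the largest ratio at a weaker flank of at least 0.5, and 2 on either side of a ratio of 2, and over all one-sided windows the 3 smallest p in each direction for the whole window and the flank ratio; the text gives part of them. Alternatives changed the pseudocount, scaling, filter, rule, libraries and the replicate block. Same-numbered libraries did not deviate together (r = -0.06 for WT1 and KO1, -0.04 for WT3 and KO3), so the numbers were not used as pairs. No genome was used, and no sequence or gene is named.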

Additional observations from a re-analysis of the deposited data

How the results depend on the processing

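Averaged over windows in each library, the flank ratio, the stronger flank, the centre and the inner weaker stretch kept their direction under every alternative run. These runs changed scaling by the library mean, the rule, the side or the libraries used to choose or to measure. That scaling cannot change the flank ratio of a library. Quantile normalization was not among these runs. In limma it turned the median difference of the centre from -0.54 to 0.08. With the windows chosen on a single library of each genotype and read in the remaining 3, the difference in the log2 flank ratio ranged from 0.26 to 0.59 over 6 choices, and that of the inner stretch from -1.18 to -0.599. The replicate block gave 0.35 for the flank ratio. No wild-type library carries the number of KO2, so KO2 does not enter the difference under that block. Limma's median differences with the block equal those without KO2, such as 0.52 for the flank ratio. The library numbers share only a number, and the paired fit left limma's calls of one-sided windows at 0 over all windows. Without the lowest 25% of windows it moved the whole-window count from 72 to 19 higher and 1 lower, and that of the stronger flank from 0 to 3.

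Limma's whole-window count of one-sided windows moved from 0 to 2 with a pseudocount of 0.5, 4 with quantile normalization and 72 without the lowest 25% of windows. Over all windows tested, the counts in these runs were 7, 12 and 174. Leaving out 1 library gave 0 to 58 calls for the stronger flank, 0 to 111 for the weaker flank, 0 to 297 for the centre, 0 to 524 for the inner weaker stretch and 0 to 72 for the outer one. All calls above 0 came without WT1 or without WT3 (58 and 26, 111 and 61, 297 and 226, 524 and 414, 72 and 48), where limma takes the spread of the only wild-type library left from the knockout; the cause was not tested.

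The difference of the weaker flank, -0.00625, changed sign to 0.0282 with a window mean of at least 2, 0.179, 0.177 and 0.00303 when chosen on WT1 and KO1, WT3 and KO1, and WT3 and KO2, 0.0201 in right-sided windows, 0.0285 with the replicate block, and 0.00395, 0.00841 and 0.00287 with 1 window per shared nucleosome, and ran from -0.0774 to 0.0301 without 1 library. The stronger flank over the centre, against balanced windows, changed sign to 0.0696 with medians, 0.14, 0.123 and 0.124 when chosen on WT1 with KO1, KO2 or KO3, 0.0346 in left-sided windows and 0.0185 without the top 1% of windows, and ran from -0.111 to 0.0518 without 1 library. The outer weaker stretch over the stronger flank changed sign to 0.0124 when chosen on WT3 and KO2 and 0.0056 in right-sided windows, and ran from -0.0843 to 0.00416 without 1 library. No cause of these changes was tested. Scaling by the mean of distinct windows, the 1 window per shared nucleosome and the runs without the top 1% were chosen after seeing the data. Depth is unknown, and with 2 wild-type libraries no exact permutation p over all 5 can go below 0.1.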
